A study of Homo sapiens with 6 samples.

Results

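The genes described are the subunits of the transcription factor NF-kB (NFKB1, NFKB2, REL, RELA and RELB), the kinases that release it (CHUK and IKBKB, with their scaffold IKBKG), the nuclear regulator BCL3 and the adaptor TRAF1. They were chosen by name, with earlier results of these data known. Of the 10 genes, 9 had a row among the 57905 gene identifiers of the deposited table. No row carried the identifier that pairs with IKBKG in the annotation used, so its level is not reported. RNA was measured in A549, an established human cell line labelled as lung adenocarcinoma cells. In 3 samples the cells carried miR-19a, transfected at 25 nM with a Lipofectamine reagent, and in 3 samples they carried the control miR-NC, transfected in the same way at 25 nM. The series' design text puts the harvest at 24 h, and only polyadenylated RNA was sequenced. Nothing in the labels ties a replicate to its own culture, and the p-values below therefore rest on a spread between samples that may be technical. In such bulk RNA, fewer cells expressing a gene and less of its RNA per cell cannot be told apart.

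Genes of the NF-kB pathway act in a chain. In the canonical arm, signals from cytokine receptors reach a complex of IKK-beta (the product of IKBKB), IKK-alpha (CHUK) and the scaffold NEMO (IKBKG), which marks IkB proteins for destruction and frees dimers of RELA or REL with the processed product of NFKB1. In the noncanonical arm, the kinase NIK activates IKK-alpha, which drives processing of the NFKB2 precursor, and the product partners RELB. BCL3 is an atypical IkB protein that acts in the nucleus with dimers of the NFKB1 and NFKB2 products, and TRAF1 is an adaptor of tumour necrosis factor receptors. In many cell types NFKB1, NFKB2, REL, RELB and TRAF1 are themselves raised when NF-kB is active.

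MicroRNAs lower messenger RNAs that pair with their seed, bases 2 to 8 of the mature strand. The mature sequence of miR-19a-3p is shown first because its seed defines the matches looked for in the 3′ UTRs. The 3 stretches below it hold the only seed matches found among these genes, in the annotated transcript with the longest coding sequence of each. Capitals mark the seed in the microRNA and the match in the 3′ UTR. The microRNA sequence is RefSeq's (GRCh38.p14, chromosome 13, plus strand) and the transcripts are those of GENCODE v29 on GRCh38. The labels do not name the arm of miR-19a, and the matches are those of the 3p arm.
miR-19a-3p: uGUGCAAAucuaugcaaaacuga
BCL3, 8mer: cgggaccaggaTTTGCACAgaagcacatgc
RELB, 6mer: gagaagctccgTTGCACgggtttccccttg
CHUK, 6mer: acctccttgtgTTGCACtgaacaggttctc

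The strongest class, the 8mer, reads TTTGCACA. A 7mer-m8 lacks its last base (TTTGCAC), a 7mer-A1 lacks its first (TTGCACA), and the 6mer lacks both (TTGCAC). Only the sense strand of the transcript was searched. A shorter match inside a longer one was not counted again. BCL3, whose 8mer lies in the 3′ UTR at chr19:44759736-44759743 on the plus strand, was the 1 gene of the 9 with a match of 7 or 8 bases. The 6mers of RELB and CHUK lie at chr19:45037936-45037941 on the plus strand and at chr10:100189085-100189090 on the minus strand. Over all 10393 tested genes with an annotated 3′ UTR, 18.7% had a match of 7 or 8 bases. TRAF1, NFKB1, NFKB2, REL and RELA had no match of any class in the 3′ UTR of any annotated protein-coding transcript, and neither had the kinase gene IKBKB. These counts covered 3 transcripts of TRAF1, 4 of NFKB1, 3 of NFKB2, 2 of REL, 5 of RELA and 7 of IKBKB.

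Rel dimers bind DNA at the kappaB motif, and genes of their own subunits are textbook carriers of it. The kappaB consensus of 10 bases was searched on both strands of the RefSeq promoter windows, from 250 bases before to 50 bases after each annotated start on GRCh38.p14, with overlapping matches counted singly. Windows were given for 8 of the 10 genes, all but IKBKB and RELB. NFKB2, REL, NFKB1 and BCL3 had a match in at least 1 window, and the windows of RELA, CHUK, TRAF1 and IKBKG had none. Of 17 windows of these genes 5 (29.4%) held a match, beside 3956 of all 35116 windows (11.3%). The matches are shown, in capitals, because NFKB2 and REL, which rose, and NFKB1 and BCL3, which did not pass the test, all carry them. All stretches are written along the plus strand.
NFKB2, chr10:102394446-102394534: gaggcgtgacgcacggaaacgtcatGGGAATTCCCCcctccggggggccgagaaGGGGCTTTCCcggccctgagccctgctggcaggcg
NFKB2, chr10:102395504-102395563: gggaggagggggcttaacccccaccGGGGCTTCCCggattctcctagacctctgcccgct
NFKB2, chr10:102395659-102395704: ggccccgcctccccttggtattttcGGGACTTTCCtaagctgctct
REL, chr2:60881502-60881562: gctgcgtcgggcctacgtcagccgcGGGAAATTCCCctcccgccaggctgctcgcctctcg
NFKB1, chr4:102501285-102501344: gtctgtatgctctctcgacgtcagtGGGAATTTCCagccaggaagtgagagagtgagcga
BCL3, chr19:44748700-44748729: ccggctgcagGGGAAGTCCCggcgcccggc

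The first NFKB2 stretch holds 3 matches, a pair of overlapping ones that starts 107 bases upstream of the annotated start and another 78 bases upstream. In REL a pair of overlapping matches starts 47 bases upstream, and in NFKB1 a single match starts 49 bases upstream. A match is a description of letters in a window, and binding was not measured.

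The study has a single comparison, miR-19a against miR-NC. Transcripts of NFKB2, RELB and REL rose in miR-19a cells, by 1.18 to 1.31 fold. Transcripts of TRAF1 and of the kinase IKBKB fell, to 0.704 and 0.736 of the miR-NC level. RELA, NFKB1, CHUK and BCL3 did not pass the test. Of the 9 genes 3 were higher and 2 lower at an adjusted p under 0.05 with edgeR's quasi-likelihood test, and their groups did not overlap in 5 of 9. Over all 12452 genes tested, 24.9% were higher, 23.5% were lower and 48.4% differed in either direction, and the groups did not overlap for 54%. The count over these genes was near the share over all genes and is no result about them as a set. Their median log2 fold change was 0.08, beside -0.00449 over all genes tested. The median absolute log2 fold change was 0.185 over all genes tested and 0.313 over those past the threshold. NFKB2 and RELB lay below that second median, and REL, IKBKB and TRAF1 beyond it.

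**Figure D1:**
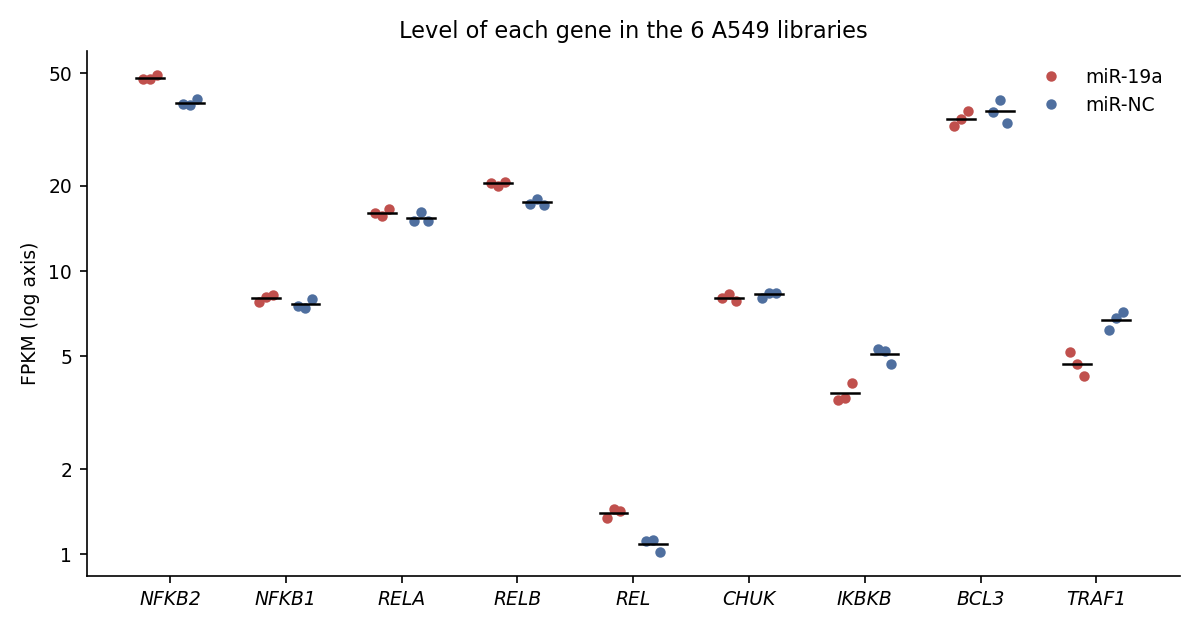
Level of each gene in FPKM (reads scaled by gene length and library total, log axis), with miR-19a libraries to the left and miR-NC libraries to the right for each gene, 1 point per library and a line at the mean of 3. NFKB2, RELB and REL sit higher in every miR-19a library than in any miR-NC library, and IKBKB and TRAF1 lower.

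Among the subunits of the noncanonical dimer, NFKB2 encodes a precursor whose processing yields a DNA-binding subunit. Its gene (ENSG00000077150) lies at chr10:102394110-102402529 on GRCh38. NFKB2 stood at 47.57, 47.73 and 49.44 FPKM in miR-19a replicates 1 to 3, against 38.98, 38.67 and 40.45 FPKM in miR-NC replicates 1 to 3. All miR-19a libraries were above all miR-NC libraries. The log2 fold change was 0.31 (SE 0.039, edgeR adjusted p = 6.2e-10), from 3478 to 3977 counts per miR-19a library and 2793 to 2907 per miR-NC library. NFKB2 was also the gene with the highest level of the 9 in miR-19a cells.

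RELB, the partner of the NFKB2 product (ENSG00000104856, chr19:45001430-45038198), had 20.54, 19.97 and 20.67 FPKM in miR-19a cells, against 17.32, 18.02 and 17.09 FPKM in miR-NC cells. Again the groups did not overlap, and the libraries within each group were close together. RELB rose by 0.24 on the log2 scale (SE 0.054, edgeR adjusted p = 0.00016), with a 95% confidence interval of 0.13 to 0.35. Its 3′ UTR holds the 6mer shown above. The median over tested genes whose strongest match is a 6mer was 0.01 on the log2 scale.

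REL encodes c-Rel, a canonical subunit best known from lymphoid cells, and lies at chr2:60881521-60931610 (ENSG00000162924). It was the gene with the lowest level, at 1.34, 1.45 and 1.42 FPKM in miR-19a cells, against 1.11, 1.12 and 1.02 FPKM in miR-NC cells. The groups did not overlap. REL rose by 0.38 (SE 0.096, edgeR adjusted p = 0.00056), resting on 247 to 286 counts per miR-19a library and 181 to 208 per miR-NC library. Its confidence interval, 0.19 to 0.58, was the widest of the 9. The call ended with limma, at 0.21 on log2(FPKM + 1) (limma adjusted p = 0.0539) and at 0.35 on log2(FPKM + 0.1) (limma adjusted p = 0.0664).

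RELA encodes p65, the transactivating subunit of the main canonical dimer (ENSG00000173039, chr11:65653596-65663094). It had 16.03, 15.68 and 16.57 FPKM in miR-19a cells, against 15.01, 16.17 and 15.02 FPKM in miR-NC cells. The groups overlapped, since miR-NC replicate 2 lay above miR-19a replicates 1 and 2. Its log2 fold change of 0.08 did not pass (SE 0.048, edgeR adjusted p = 0.17), and the confidence interval ran from -0.02 to 0.18. Without miR-NC replicate 2 the value was 0.12, just past the threshold (edgeR adjusted p = 0.0497).

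NFKB1, which encodes the precursor of the canonical DNA-binding subunit (ENSG00000109320, chr4:102501329-102617302), had 7.76, 8.1 and 8.21 FPKM in miR-19a cells, against 7.53, 7.41 and 7.97 FPKM in miR-NC cells. The groups overlapped at miR-NC replicate 3. NFKB1 did not pass, at a log2 fold change of 0.09 (SE 0.057, edgeR adjusted p = 0.20) with a confidence interval of -0.03 to 0.20. That interval overlaps those of RELB and REL, and the differences between the genes' fold changes were not tested.

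**Figure D2:**
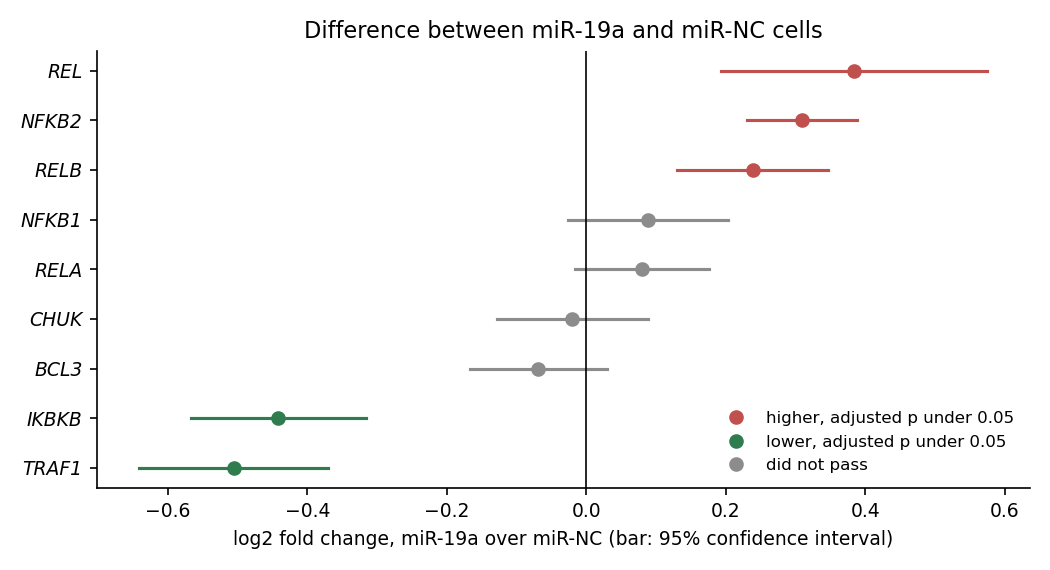
Log2 fold change of each gene, miR-19a over miR-NC, from edgeR on counts, with bars for the 95% confidence interval. The intervals of REL, NFKB2 and RELB lie above 0, those of IKBKB and TRAF1 below 0, and those of NFKB1, RELA, CHUK and BCL3 include 0.

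The make-up of the Rel family was set out per library as the share of each subunit in the summed FPKM of NFKB1, NFKB2, REL, RELA and RELB. The sum was 93.24, 92.93 and 96.31 FPKM in miR-19a cells, against 79.95, 81.39 and 81.55 FPKM in miR-NC cells. NFKB2 held 51.0%, 51.4% and 51.3% of it in miR-19a libraries, against 48.8%, 47.5% and 49.6% in miR-NC libraries. RELA held 17.2%, 16.9% and 17.2% in miR-19a libraries, against 18.8%, 19.9% and 18.4% in miR-NC libraries. The NFKB2 share was thus higher in every miR-19a library, and the RELA share lower, than in any miR-NC library. Shares of one sum are tied to each other, so they are not results apart from the fold changes. The mean level of RELA was 16.09 FPKM in miR-19a cells and 15.4 FPKM in miR-NC cells. That of NFKB1 was 8.02 FPKM in miR-19a cells and 7.64 FPKM in miR-NC cells. A lower share of either was thus not a lower level.

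NFKB1 held 8.52% ± 0.197 of the sum in miR-19a cells and 9.43% ± 0.335 in miR-NC cells (SD, n = 3 each), and the groups did not overlap. REL held 1.49% ± 0.063 in miR-19a cells and 1.34% ± 0.076 in miR-NC cells, also without overlap. RELB held 21.7% ± 0.320 in miR-19a cells and 21.6% ± 0.596 in miR-NC cells, and these overlapped. The exact two-sided permutation test gave p = 0.1 for the shares of NFKB2, RELA, NFKB1 and REL and for the sum, the smallest p that 3 against 3 libraries allow, and p = 1.0 for RELB. These shares depend on the gene lengths the authors used. From counts and FPKM those lengths come to 4.48 kb for NFKB2, 3.03 kb for RELB, 5.46 kb for RELA, 6.26 kb for NFKB1 and 11.3 kb for REL.

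**Figure D3:**
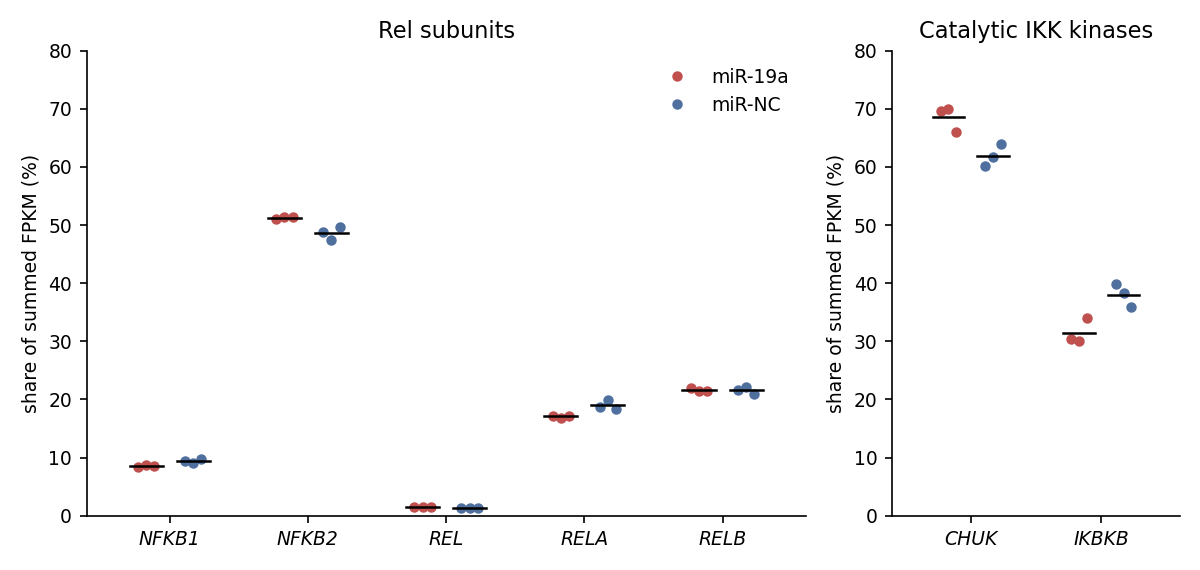
Share of each subunit in the summed FPKM of the 5 Rel genes (left) and of the catalytic IKK kinases CHUK and IKBKB (right), in percent, with miR-19a to the left and miR-NC to the right for each gene, 1 point per library and a line at the mean of 3. The NFKB2 and CHUK shares are higher in each miR-19a library than in any miR-NC library, while the RELB shares overlap.

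Of the IKK kinases, IKBKB fell and CHUK did not pass. IKBKB, which encodes the IkB kinase of the canonical arm (ENSG00000104365, chr8:42271302-42332653), had 3.51, 3.55 and 4.04 FPKM in miR-19a cells, against 5.32, 5.21 and 4.71 FPKM in miR-NC cells. All miR-19a libraries lay below all miR-NC libraries, with miR-19a replicate 3 and miR-NC replicate 3 nearest to each other. The log2 fold change was -0.44 (SE 0.063, edgeR adjusted p = 1.3e-08), with an interval of -0.57 to -0.32.

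CHUK, the kinase that drives processing of the NFKB2 precursor (ENSG00000213341, chr10:100188298-100229619), had 8.06, 8.29 and 7.84 FPKM in miR-19a cells, against 8.03, 8.4 and 8.38 FPKM in miR-NC cells. The groups overlapped. CHUK did not pass, at -0.02 (SE 0.054, edgeR adjusted p = 0.79), and the interval of -0.13 to 0.09 does not reach the value of IKBKB. CHUK made up 69.7%, 70.0% and 66.0% of the summed FPKM of both kinases in miR-19a libraries, against 60.2%, 61.7% and 64.0% in miR-NC libraries. The shares did not overlap (exact two-sided permutation p = 0.1, the smallest possible). The share of CHUK is the remainder of that of IKBKB and is no result apart from the fall of IKBKB. The gene lengths behind these levels come to 6.93 kb for CHUK and 10.0 kb for IKBKB.

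TRAF1, an adaptor that binds TRAF2 and the ubiquitin ligases BIRC2 and BIRC3, had the log2 fold change farthest from 0 of the 9 genes with all libraries in the fit (ENSG00000056558, chr9:120902393-120929173). It stood at 5.17, 4.68 and 4.26 FPKM in miR-19a cells, against 6.2, 6.84 and 7.19 FPKM in miR-NC cells. The groups did not overlap. TRAF1 fell by 0.51 on the log2 scale (SE 0.068, edgeR adjusted p = 2.5e-09), with an interval of -0.64 to -0.37. The order of TRAF1 and IKBKB turned without miR-19a replicate 3 (-0.44 for TRAF1, -0.51 for IKBKB) and without miR-NC replicate 3 (-0.46 for TRAF1, -0.50 for IKBKB). Both TRAF1 and IKBKB lay below the 5th percentile (-0.41) of tested genes with no seed match in the 3′ UTR.

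BCL3, the atypical IkB protein, lies at chr19:44747705-44760044 (ENSG00000069399). It had 32.61, 34.33 and 36.69 FPKM in miR-19a cells, against 36.56, 40.09 and 33.24 FPKM in miR-NC cells. The groups overlapped, and miR-NC cells spread more, with an SD of 3.43 FPKM beside 2.05 FPKM in miR-19a cells. BCL3 did not pass, at -0.07 (SE 0.049, edgeR adjusted p = 0.26), although it carries the 8mer shown above. The median over genes with an 8mer was -0.15 on the log2 scale, and BCL3 lay between their 25th and 75th percentiles, -0.43 and 0.06. BCL3 turned on single libraries, at 0.004 without miR-NC replicate 2 (edgeR adjusted p = 0.96) and -0.14 without miR-NC replicate 3 (edgeR adjusted p = 0.0245).

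**Figure D4:**
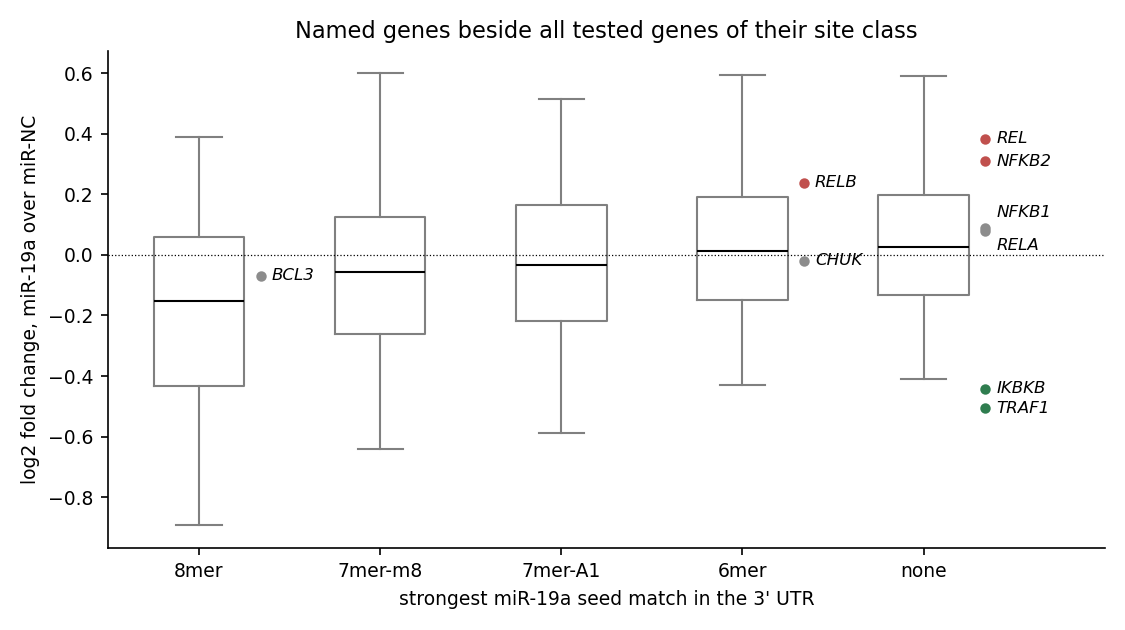
Log2 fold change, miR-19a over miR-NC, of all tested genes by the strongest miR-19a seed match in their 3′ UTR (box: quartiles and median, whiskers: 5th to 95th percentile), with the 9 genes as labelled points to the right of their class. BCL3 is the 1 gene in a class of 7 or 8 bases, and IKBKB and TRAF1 lie at the lower end of the class with no match.

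Per length, the order of levels in miR-19a cells was NFKB2, BCL3, RELB, RELA, CHUK, NFKB1, TRAF1, IKBKB and REL. In that order the ranges over libraries overlapped between neighbours for CHUK and NFKB1, and for no other pair. In miR-NC cells the order was the same, and the ranges of NFKB2 (38.67 to 40.45 FPKM) and BCL3 (33.24 to 40.09 FPKM) overlapped. All 9 genes were above 1 FPKM in every library. Of the 9 genes, CHUK shares 37 bases with ERLIN1 on the same strand and 712 bases with an antisense gene counted at a mean of 0.3 reads in each group. No source used here says whether the counting used strand. REL overlaps a small nuclear RNA gene (140 bases) and a noncoding RNA gene (5702 bases), both on the same strand and both with 0 counts, and the genes overlapping BCL3 (65 bases, on the same strand) and RELA (9 bases, on the opposite strand) had no row.

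Total counts were 16323470 to 17957932 per miR-19a library and 15699037 to 16652353 per miR-NC library. Reads from mitochondrially encoded genes made up 6.25% to 6.43% of counts in miR-19a libraries and 6.77% to 7.66% in miR-NC libraries, and the part of this difference in the results was not tested. Of 10 epithelial and lung markers 5 reached a mean of 1 FPKM, with summed levels of 1849.07 to 1930.04 FPKM in miR-19a cells and 1722.77 to 1755.9 FPKM in miR-NC cells. Of these 5, KRT8, KRT18 and KRT19 were higher, whereas KRT7 (497.27 to 536.49 FPKM in miR-19a cells, 618.19 to 648.59 FPKM in miR-NC cells) and CDH1 (5.15 to 5.93 FPKM in miR-19a cells, 6.03 to 6.59 FPKM in miR-NC cells) were lower. The keratins carried the sum, whereas the alveolar genes NKX2-1 and SFTPC were at 0.02 FPKM or less in every library and EPCAM under 1 FPKM. Of 9 fibroblast markers only COL1A1 reached a mean of 1 FPKM, at 2.41 to 2.76 FPKM in miR-19a cells and 0.8 to 1.0 FPKM in miR-NC cells. THY1 went the other way, at 0.5 to 0.69 FPKM in miR-19a cells and 0.84 to 0.95 FPKM in miR-NC cells. The fibroblast markers summed to 3.04 to 3.72 FPKM in miR-19a cells and 1.78 to 2.09 FPKM in miR-NC cells, mostly from COL1A1 in miR-19a cells. Decorin (DCN) was at 0.01 FPKM or less in every library. Immune markers summed to 1.82 to 2.12 FPKM in miR-19a cells and 1.23 to 1.66 FPKM in miR-NC cells, with CD14 the 1 of 9 to reach 1 FPKM and PTPRC at 0.01 FPKM or less. Endothelial markers summed to 0.01 to 0.05 FPKM in miR-19a cells and 0.01 to 0.03 FPKM in miR-NC cells. What part these markers have in the results was not tested.

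Among receptors, adaptors and kinases upstream of IKK in the canonical arm, 5 of 20 tested genes were higher, 3 were lower and 12 did not pass (edgeR, adjusted p under 0.05), beside 24.9% higher and 23.5% lower over all genes tested. The share of higher genes was near that over all genes, and the share of lower genes was smaller than that over all genes. The median log2 fold change was -0.00127. IL1RAP, the co-receptor for interleukin 1, rose by 1.63 (SE 0.065), to 71.5 ± 6.06 CPM in miR-19a cells against 23.1 ± 0.822 CPM in miR-NC cells (CPM, counts scaled by library total but not by gene length; SD, n = 3 each). IL1R1, the receptor chain itself, fell by 0.61 (SE 0.056) and has an 8mer in its 3′ UTR. TOLLIP, which binds the receptor complex, rose by 0.27 (SE 0.057). RBCK1, a subunit of the linear ubiquitin ligase, fell by 0.21 (SE 0.042) and has no seed match in the 3′ UTR searched. Without miR-NC replicate 2, 5 genes of this list were lower.

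On the noncanonical list 5 of 9 tested genes were higher and 3 lower, beside 24.9% and 23.5% over all genes tested, with a median of 0.14. TNFRSF12A, the receptor for the cytokine TWEAK, fell by 1.24 (SE 0.043), to 131.2 ± 2.42 CPM in miR-19a cells against 310.1 ± 23.0 CPM in miR-NC cells, and carries an 8mer. MAP3K14, which encodes NIK, fell by 0.43 (SE 0.044) and carries a 7mer-m8. BIRC3 and BIRC2, ubiquitin ligases that hold NIK low, rose by 0.76 (SE 0.044) and 0.30 (SE 0.050). BIRC3 rose although it carries a 7mer-m8 too. LTBR and CD40, other receptors on the list, rose by 0.15 (SE 0.041) and 0.39 (SE 0.127), and were named after their values were seen. Without miR-19a replicate 3 the count of higher genes was 3.

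The TRAF list holds TRAF proteins other than TRAF1 and the TRAF-interacting proteins TRAF3IP1, TRAF3IP2 and TANK. It shares TRAF2 and TRAF3 with the last list, and TANK with the IKK-related list below. Of its 9 tested genes 4 were higher and 3 lower, beside 24.9% and 23.5% over all genes tested. The median was -0.01. TRAF4 rose by 0.30 (SE 0.045) and TRAF3, which recruits NIK for degradation, by 0.14 (SE 0.051). TRAF5 fell by 0.31 (SE 0.081) and TRAF2, the main partner of TRAF1, by 0.17 (SE 0.053). Neither has a seed match in the 3′ UTR searched. The count of higher genes was 1 when miR-19a replicate 1 was left out, and 2 when miR-19a replicate 3, miR-NC replicate 1 or miR-NC replicate 3 was. The count of lower genes was 1 without miR-NC replicate 1.

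The inhibitor list holds IkB proteins, atypical ones included, and other inhibitors of NF-kB. Of its 16 tested genes 3 were higher and 4 lower, near the 24.9% and 23.5% over all genes tested. The median was 0.05. NFKBIA, which encodes IkB-alpha and holds RELA dimers in the cytoplasm, rose by 0.18 (SE 0.040), to 209.8 ± 6.20 CPM in miR-19a cells against 185.4 ± 7.36 CPM in miR-NC cells. TAX1BP1, an adaptor of the A20 complex, rose by 0.14 (SE 0.041). RNF11, another partner of A20 with 2 matches of the 8mer class, fell by 1.71 (SE 0.076). CYLD, a deubiquitinase with an 8mer, fell by 0.22 (SE 0.077). Within the lists, seed matches are stated mainly for genes picked by smallest adjusted p, and other genes of the lists carry matches too. The count of lower genes was 1 without miR-19a replicate 1 and 2 when miR-19a replicate 2 or miR-NC replicate 1 was left out. With DESeq2 or limma it was 1.

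Target genes of NF-kB were mostly higher. The list was chosen with earlier results of these data known, so its count is a description and no independent support. It holds none of the genes named so far. Of 38 genes listed 37 had a row and 30 were tested, of which 23 rose and 2 fell, beside 24.9% and 23.5% over all genes tested. The median log2 fold change was 0.61. EFNA1, an ephrin ligand, rose by 1.53 (SE 0.048), to 143.9 ± 2.73 CPM in miR-19a cells against 49.8 ± 2.06 CPM in miR-NC cells. The neutrophil chemokine CXCL5 rose by 1.12 (SE 0.037), to 2454 ± 123.2 CPM in miR-19a cells against 1126 ± 29.6 CPM in miR-NC cells. CSF1, a macrophage growth factor, fell by 0.38 (SE 0.051) and the survival gene BCL2L1 by 0.21 (SE 0.037). The strongest seed match of CSF1 is a 6mer, and BCL2L1 has no match in the 3′ UTR searched. PLAU, also on the list, has an 8mer and was not among the 2 genes called lower. TRAF1, itself known as an NF-kB target, moved against the direction of most of this list.

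**Figure D5:**
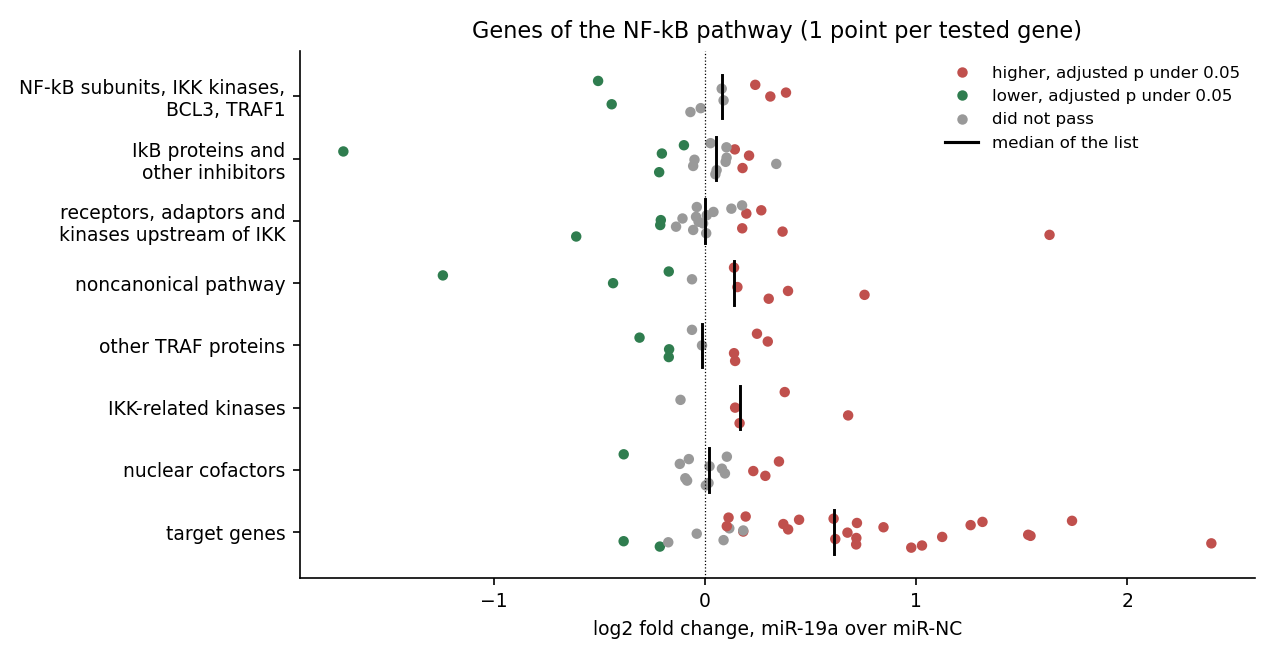
Log2 fold change, miR-19a over miR-NC, of each tested gene of the NF-kB pathway by list, with a line at the median of the list. Target genes lie mostly above 0 with a median of 0.61, while receptors and genes of the inhibitor and TRAF lists lie on both sides of 0. The lists were chosen with earlier results of these data known.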

How the data were processed

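Libraries of polyadenylated RNA from 6 samples were sequenced from both ends on an Illumina HiSeq, per the labels' protocols. The submitters' processing notes name bcl2fastq 2.17.1.14. No source used here names an aligner, a counting tool, a build or an annotation. The authors deposited a raw count and an FPKM value per gene and library. FPKM is the name per the file headers, and these values divide counts by gene length and library size. A gene name table paired 51996 identifiers with symbols and GENCODE v29 another 342, which left 5567 with none.

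Counts were tested with edgeR 4.0.16 (R 4.3.3; quasi-likelihood, two-sided, TMM factors, Benjamini-Hochberg over the 12452 genes averaging 1 FPKM or more). A call is an adjusted p under 0.05, CPM are TMM-scaled, and standard errors were taken from the fold change and the F statistic. The common biological coefficient of variation was 0.0352. Replicates were separate libraries by their counts, since chi-square per gene within groups was 1.60 to 4.19. The fit was tested on simulated counts drawn at the common dispersion, so differences in spread between genes were not simulated. It recovered 34 of 50 genes changed 1.25 fold, 44 of 50 at 1.5 fold and 49 of 50 at 4 fold. Of 12252 unchanged genes, 10 were called.

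Named genes are all members, from each list at most 2 rising and 2 falling genes, taken by smallest adjusted p, genes overlapping a member, and markers. LTBR and CD40 fall outside this rule and were named after their values were seen. TRAF3IP1, TRAF3IP2, TANK, TBK1 and PLAU are named without values. TBK1 and PLAU were named after the calls were seen. Members and lists were chosen with earlier results of these data known. Alternatives were median-of-ratios factors, library totals, DESeq2 1.42.0, limma 3.58.1 on log2(FPKM + 1) and log2(FPKM + 0.1), other gene filters, a replicate block and each library left out. Leaving out 1 library kept 2 in its group. Shares used an exact permutation test over libraries.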

Additional observations from a re-analysis of the deposited data

How the results depend on the processing

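The calls of NFKB2, RELB, IKBKB and TRAF1 held under all 14 alternatives, with log2 fold changes of 0.29 to 0.33, 0.21 to 0.26, -0.51 to -0.37 and -0.58 to -0.44. REL missed the threshold with limma at either pseudocount, and NFKB1 passed under none (0.06 to 0.12). RELA ranged from 0.06 to 0.12. CHUK, which was never called, ranged from -0.042 to 0.001, with the positive value without miR-19a replicate 3, and BCL3 from -0.14 to 0.004. No pairing of same-numbered libraries was detected, with their deviations correlated at 0.00848, 0.000547 and -0.031. Libraries of unlike number correlated at -0.0281 to 0.0255. These values cannot exclude a weak pairing, since counting noise also keeps such correlations near 0. With the replicate block the counts were 3 higher and 2 lower of these genes and 3083 and 2903 of all genes.

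With each library left out, the difference in the RELB share ran from -0.24 to 0.35 percentage points, with negative values without miR-19a replicate 1 (-0.11) and miR-NC replicate 3 (-0.24). The REL share differed by 0.38 points when taken from CPM, not per length. Over the left-out libraries, counts ran from 1 to 3 lower genes of the inhibitor list. They ran from 2 to 5 lower receptors and adaptors, and 3 to 5 higher noncanonical genes. On the TRAF list they ran from 1 to 3 higher and 1 to 3 lower genes. Counts also ran from 2 to 4 higher IKK-related genes and 1 to 2 lower cofactors. Lower genes of the inhibitor list numbered 1 with DESeq2 and either limma fit and 2 with no filter. Higher genes of the TRAF list numbered 2 with DESeq2 and 1 with either limma fit. Higher IKK-related genes numbered 2 with DESeq2 and with limma on log2(FPKM + 1), and 1 was lower with library totals and either limma fit. Lower cofactors numbered 3 with library totals and 2 with either limma fit, no filter and filterByExpr. The cause was not tested. The planned kinase share that includes IKBKG was not run, since no row matched IKBKG. All kinase shares given are of CHUK and IKBKB alone. With few counts REL is measured least precisely.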

Other observations

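Of 5 tested kinases and adaptors related to IKK, 4 rose with edgeR and 1 did not pass, beside 24.9% higher over all genes tested, with a median log2 fold change of 0.16. The count was 2 with DESeq2 and with limma on log2(FPKM + 1). Without miR-19a replicate 2 or miR-NC replicate 3, 2 were higher. OPTN, optineurin, an adaptor of the kinase TBK1, rose by 0.68 (SE 0.047), to 122.6 ± 4.37 CPM in miR-19a cells against 76.6 ± 3.71 CPM in miR-NC cells. TBKBP1, another TBK1 adaptor, rose by 0.38 (SE 0.094). TBK1 itself has an 8mer in its 3′ UTR and was not called lower with edgeR, nor was any other tested gene of this list.

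Nuclear cofactors and modifiers of NF-kB numbered 3 higher and 1 lower of 14 tested, beside 24.9% and 23.5% over all genes tested, and 2 were lower without miR-19a replicate 3 or miR-NC replicate 2. HDAC1, a histone deacetylase, rose by 0.29 (SE 0.044) and PRKACA, a catalytic subunit of protein kinase A, by 0.35 (SE 0.056). TBL1XR1, an exchange factor of corepressor complexes, fell by 0.38 (SE 0.066).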
